A study of Homo sapiens with 8 samples.

Results

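U2OS is a human osteosarcoma cell line, and the expression state described here is that of U2OS cells given a control siRNA that targets no gene. The 4 arrays labelled as nonspecific siRNA were taken by their titles, out of 8 in the series, and no other array was used. Cells were grown in DMEM with 7.5% fetal bovine serum, received the non-targeting siRNA at 10 nM with the transfection reagent Hi-Perfect, and were harvested after 72 h. Replicates are biological per the design text, and total RNA of each was labelled with biotin and hybridised to an Affymetrix human gene array. Every value therefore belongs to transfected cells. U2OS is a single tumour-derived line, so the 4 arrays say nothing of other osteosarcomas, and the labels give no passage or clone.

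Osteosarcomas arise from cells of the bone-forming lineage, in which RUNX2 and then SP7 (osterix) direct osteoblast differentiation and late genes such as IBSP and DMP1 accompany mineralisation. A cell enters S phase when cyclin D with CDK4 or CDK6, and cyclin E with CDK2, phosphorylate the retinoblastoma protein and release E2F transcription factors. CDK inhibitors such as p16, from CDKN2A, restrain this step. U2OS is widely used as a line that has no p16, keeps wild-type p53 and maintains telomeres by the alternative, recombination-based route in which ATRX is usually lost.

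The deposited table gave a log2 value for 33297 probe sets on each array. Probe sets with a single gene symbol were kept, and the brightest probe set of each gene stood for it, which left 18417 genes. The median of all probe sets was 5.80 on replicate 1, against 7.02, 7.03 and 7.04 on replicates 2, 3 and 4. Log2 values were therefore not compared between replicate 1 and the others. Each gene was instead given its percentile rank within its own array, where 100 is the highest gene. Ranks from replicate 1 are shown apart or as the value listed before the other 3, and values below always run from replicate 1 to replicate 4. Correlations across genes, which are not independent replicates, were 0.977 to 0.978 (Pearson's r) between replicate 1 and the others and 0.998 among replicates 2 to 4.

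A rank orders probe set signals, which depend on probe affinity as well as on RNA abundance, so neighbouring ranks of different genes carry no order of abundance. A floor was therefore taken from 341 olfactory receptor genes, which are made in the nose and are used here as genes with little RNA in bone tumour cells. Their 95th percentile lay at a log2 of 5.24 on replicate 1 and at 6.27, 6.23 and 6.22 on replicates 2 to 4, close to rank 26.6 to 29.8 within the arrays. Genes above the floor in all 4 arrays numbered 12584, or 68.3% of all genes. Genes above it in no array numbered 4488 (24.4%), and 1345 (7.3%) were above it in some arrays only. The floor is lenient: GFAP, the intermediate filament of astrocytes, stood above it with ranks of 37.5, 36.97, 36.7 and 36.8. Counts of genes above the median rank in all 4 arrays (46.9% of all genes, with 46.8% below it in all 4) and in the top 10% in all 4 arrays (8.46%) are therefore given beside it.

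**Figure D1:**
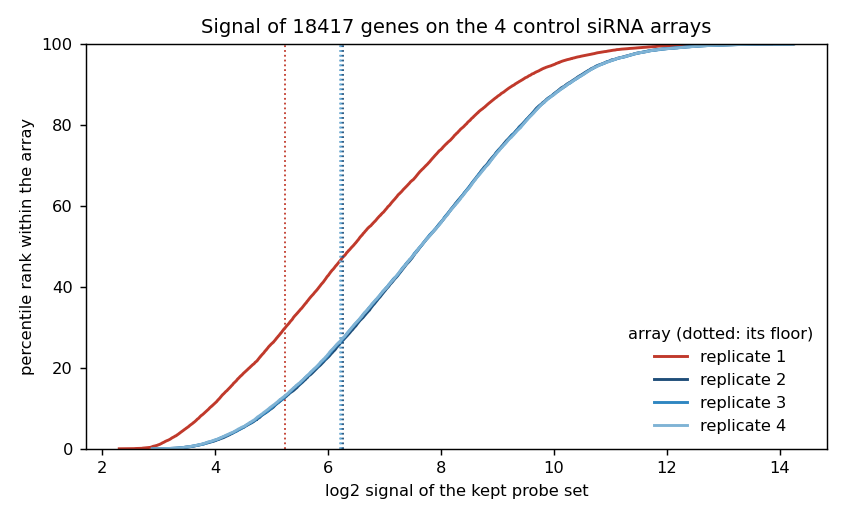
Cumulative distribution of the log2 signal (x axis) of 18417 genes on each control siRNA array, with the percentile rank within the array on the y axis and a dotted line at each array's floor. The curve of replicate 1 lies at lower log2 values than those of replicates 2 to 4, which overlap, and its floor of 5.24 is shifted with it.

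Among the 18417 genes kept, the highest signals came from glycolysis, translation, the cytoskeleton and protein chaperones. The highest of all 33297 probe sets, named or not, read 14.61, 14.60, 14.60 and 14.60, above the genes kept. GAPDH, the glycolytic dehydrogenase, read 13.85, 14.25, 14.22 and 14.21 on the log2 scale and was the highest gene by its mean over replicates 2 to 4, at 14.23 ± 0.019 (SD, n = 3). EEF1A1, the elongation factor that carries aminoacyl-tRNA to the ribosome, followed at 13.79, 14.13, 14.14 and 14.15. Beta-actin (ACTB) read 13.06, 13.87, 13.83 and 13.82 and gamma-actin (ACTG1) 13.58, 13.65, 13.74 and 13.72. The 20 highest genes also held the enolase ENO1, the tubulin TUBB, the chaperones HSPA8 and HSP90AB1, the translation factors EIF1 and EEF1G, prothymosin alpha (PTMA), and the ribosomal protein genes RPL4, RPS3, RPL5, RPS4X, RPLP1, RPL8 and RPS2. ENO1 read 13.32, 13.66, 13.71 and 13.72, HSPA8, which folds newly made proteins, read 13.46, 13.69, 13.69 and 13.71, and RPS2, the last of the 20, read 12.59, 13.29, 13.37 and 13.33. All 20 were thus within a narrow band near the top of every array's range.

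Some of these places rest on the probe set chosen. FAF2, which works in the removal of proteins from the endoplasmic reticulum, read 13.36, 13.82, 13.84 and 13.87 on the kept probe set and 10.30, 10.73, 10.76 and 10.73 on its other probe set. PTMA has 6 probe sets, and their means over replicates 2 to 4 ran from 7.23 to 13.66. RPL5 has 3 probe sets, with the others at means of 8.85 and 12.86 against 13.52 for the one kept. Processed pseudogenes of ribosomal protein and prothymosin genes are numerous, and probe sets of these families can read related sequences. Among all 18417 genes, 769 had more than 1 probe set, and in 142 of these the brightest and the dimmest differed by more than 2 log2 units.

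The 57 cytosolic ribosomal protein genes measured here, a list drawn from the genes kept, were all above the median rank in all 4 arrays. Of these, 46 were in the top 10%. Their median rank was 99.13 on replicate 1 and 99.36 to 99.37 on replicates 2 to 4. The lowest was RPL22, at ranks of 56.2, 58.4, 62.4 and 57.8, followed by RPS29 at 56.1, 67.5, 70.1 and 69.95. Of 20 translation factors, 18 were in the top 10%. EIF4E, which binds the mRNA cap, was the lowest of the 20, at ranks of 35.6, 35.3, 34.7 and 35.2. Its partner EIF4G1, the scaffold of the cap-binding complex, ranked 96.2, 95.1, 94.98 and 94.7.

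Glycolysis genes were nearly as high. Of 19 measured, 17 were above the median rank and 10 in the top 10% in all 4 arrays. The lactate dehydrogenase genes LDHA and LDHB ranked 99.73 to 99.83 and 99.73 to 99.78. Of the glucose transporters, SLC2A3 (GLUT3) ranked 92.05, 98.5, 98.6 and 98.5 and SLC2A1 (GLUT1) 85.9, 89.2, 89.2 and 89.4. SLC2A3 was lower on replicate 1 than on the other 3. The tissue-restricted isoforms ALDOC, of brain, and ENO3, of muscle, were the members below the median rank, at 33.6 to 36.9 and 26.2 to 31.2.

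The middle of the distribution held genes of many roles. The 5 genes whose mean rank lay closest to 50 were ZNF174, a zinc finger gene, TIGD1, derived from a transposase, OFD1, a protein of the centriole, the oxygenase gene OGFOD2, and CCDC71L. OFD1 read 6.33, 7.62, 7.68 and 7.71, at ranks of 48.5, 49.5, 50.7 and 51.2. ZNF174 read 6.51, 7.60, 7.66 and 7.59, at ranks of 51.3, 49.2, 50.4 and 49.2. Both moved within a few rank points between arrays, and all 5 were above the floor in all 4 arrays. Which genes are in the middle depends on the features ranked: among all 33297 probe sets, named or not, these 5 had mean ranks of 59.1 to 59.2.

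The lowest signals came from small RNA genes. Of the 10 genes with the lowest means over replicates 2 to 4, 6 belonged to SNORD115, a cluster of brain-expressed small nucleolar RNA genes on chromosome 15, and 4 were microRNA genes. Values under the floor carry no order among themselves. SNORD115-4, one of the 6, read 2.43, 2.90, 2.97 and 2.88. None of the 20 SNORD115 genes was above the floor in any array, whereas 6 of the 20 SNORD116 genes, from the same imprinted region, were above it in all 4 arrays. SNORD33, which lies in an intron of the ribosomal protein gene RPL13A, was by contrast among the 20 highest genes, at 12.98, 13.74, 13.75 and 13.76. Families were chosen after values had been seen, except for the olfactory receptors.

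MicroRNA genes were low as a class: 41 of 173 were above the floor in all 4 arrays, and 8 of 173 above the median rank. These are probe sets placed on microRNA genes, and whether they read the mature form, the hairpin or its precursor was not tested. The mature sequences of 4 genes with high ranks and of the 4 among the lowest 10 genes are shown as examples from the 2 ends of the class. They are from RefSeq on GRCh38.p14, 5′ to 3′, with the seed (bases 2 to 8) in capitals.
hsa-miR-21-5p: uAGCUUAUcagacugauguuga
hsa-miR-339-5p: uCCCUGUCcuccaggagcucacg
hsa-miR-326: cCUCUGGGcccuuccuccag
hsa-miR-210-3p: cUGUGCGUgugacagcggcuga
hsa-miR-302a-3p: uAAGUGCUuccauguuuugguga
hsa-miR-29b-3p: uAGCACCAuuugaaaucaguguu
hsa-miR-190a-5p: uGAUAUGUuugauauauuaggu
hsa-miR-376c-3p: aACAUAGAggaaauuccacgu
MIR21 lies on chromosome 17, MIR339 on 7, MIR326 and MIR210 on 11, MIR302A on 4, MIR29B1 on 7, MIR190A on 15 and MIR376C on 14. None of these 8 shared a seed with another.

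MIR21, a microRNA gene highly expressed in many tumours, read 7.29, 9.09, 9.23 and 9.33, at ranks of 63.4, 74.97, 77.02 and 78.3. MIR210, known for its response to low oxygen, ranked 69.4, 68.8, 65.2 and 63.7. MIR302A, a marker of pluripotent cells, read 2.58, 3.10, 3.23 and 3.13 and ranked 0.0706, 0.0326, 0.0977 and 0.0597. MIR29B1, whose product targets collagen mRNAs, ranked 0.0271, 0.0217, 0.0543 and 0.0163. The hairpins of the 38 matched microRNA genes above the floor in all 4 arrays had a median G and C content of 59.9%, against 45.6% for the 105 above it in no array. The ranges overlapped, at 42.9% to 73.6% and 28.8% to 65.3%, and the hairpin of MIR21, at 48.6%, lay near the median of 49.1% for all 155. Base composition also affects hybridisation, and its part in these ranks was not tested.

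The osteoblast genes were low as a list, with a few high members. Of 22 measured, 13 (59.1%, against 68.3% of all genes) were above the floor in all 4 arrays and 4 (18.2%, against 46.9%) above the median rank. Their median of mean ranks was 40.6, against 49.8 for all genes. SPARC (osteonectin), a collagen-binding matrix protein, read 11.42, 12.50, 12.58 and 12.52 and ranked 98.97, 99.45, 99.49 and 99.43. The bone morphogenetic protein gene BMP4 ranked 85.8, 96.4, 96.5 and 96.2, and COL1A1, the main chain of bone collagen, ranked 83.8, 86.7, 86.5 and 86.2. CDH11 (osteoblast cadherin) was the other member above the median rank in all 4 arrays, at 58.1, 58.7, 58.95 and 56.5. SPARC was in the top 10% in all 4 arrays, and BMP4 in replicates 2 to 4.

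RUNX2, the master regulator of the lineage, read 6.24, 9.32, 9.33 and 9.44 and ranked 46.96, 78.5, 78.4 and 79.9, so replicate 1 lay far below the other 3. TNFRSF11B (osteoprotegerin), a secreted inhibitor of osteoclast formation, showed the same order, at 42.5, 69.9, 66.4 and 64.1. SP7, which acts after RUNX2, ranked 37.6, 47.2, 43.4 and 45.98, below the median in every array. SPP1 (osteopontin) ranked 34.6, 50.7, 53.2 and 51.4. ALPL, the alkaline phosphatase of bone, read 5.13, 6.23, 6.43 and 6.13 and stood above the floor in 1 array, replicate 3. COL1A2, which encodes the partner chain of COL1A1, ranked 36.6, 37.1, 39.8 and 38.9.

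The 7 osteoblast genes above the floor in no array were PHEX, DLX5, TNFSF11 (RANKL), IBSP, DMP1, MEPE and OMD. IBSP, bone sialoprotein, read 3.91, 5.03, 4.85 and 4.83. DMP1 and MEPE, genes of osteocytes and mineralised matrix, ranked 11.9, 6.01, 5.29 and 6.47 and 3.27, 4.39, 3.93 and 5.16. OMD (osteomodulin), a proteoglycan of mature bone matrix, ranked 1.53, 0.728, 0.369 and 0.608. Of the 22 osteoblast genes, SPARC, BMP4, COL1A1 and CDH11 were thus above the median rank in all 4 arrays. DLX5, IBSP and DMP1 were above the floor in no array and ALPL in 1. Whether the ranks of SPARC, BMP4, COL1A1 and CDH11 mark a bone origin was not tested. In bulk RNA a low level in every cell cannot be told apart from expression in few cells.

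Mesenchymal genes had the highest median rank of the lineage lists. Of 18, 14 were above the floor and 11 above the median rank in all 4 arrays, with a median of mean ranks of 62.3. Fibronectin (FN1) ranked 99.25, 99.58, 99.57 and 99.47, vimentin (VIM) 98.8, 99.25, 99.25 and 99.18 and the adhesion molecule ALCAM 98.6, 97.6, 97.7 and 97.7, and these 3 were in the top 10%. The surface antigen THY1 (CD90) ranked 89.3 to 93.5, N-cadherin (CDH2) 89.9 to 91.8 and CD44 88.3 to 94.1. SNAI2 (Slug), a transcription factor of epithelial to mesenchymal transition, ranked 78.4, 93.4, 94.4 and 92.9, and ZEB1 63.98, 63.7, 65.2 and 61.3, while ZEB2 was above the floor in no array (14.5 to 19.5). NT5E (CD73), a marker of mesenchymal stromal cells, was also above it in no array, at 18.7, 11.7, 12.6 and 9.60.

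**Figure D2:**
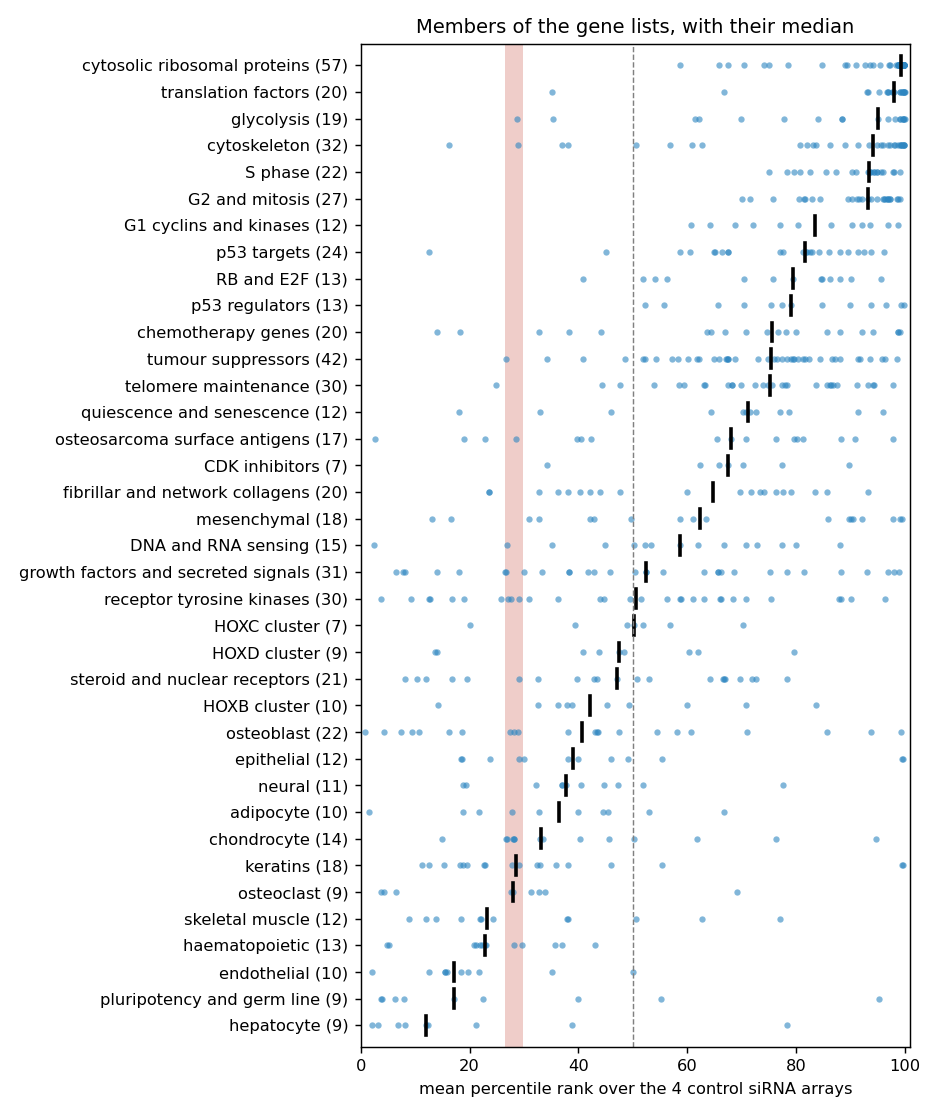
Mean percentile rank over the 4 control siRNA arrays (x axis) of each measured member (dots) of the lists with 7 or more members, the number in brackets, with the median of each list as a black bar. The shaded band is the floor (26.6 to 29.8) and the dashed line rank 50: ribosomal, translation, S phase and mitosis lists lie at the high end, and hepatocyte, pluripotency and germ line, endothelial and haematopoietic lists at the low end.

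Epithelial genes split sharply. The simple-epithelium keratins KRT8 and KRT18, which pair with each other in filaments, read 12.13, 12.95, 12.94 and 12.88 and 11.84, 12.62, 12.70 and 12.67, and both were in the top 10% in all 4 arrays. KRT14, a keratin of basal epithelium, was the remaining member above the median rank, at 52.5, 57.8, 55.5 and 56.01. E-cadherin (CDH1) ranked 20.3, 25.5, 24.7 and 24.2, EPCAM 12.8, 22.6, 18.3 and 19.7 and the epithelial regulator GRHL2 17.3, 18.02, 18.6 and 20.6, and none of these 3 was above the floor in any array. Of 18 keratin genes measured in all, 8 (44.4%) were above the floor and 3 (16.7%) above the median rank.

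Cartilage genes were low as a list, with a few high members. Of 14 measured, 7 were above the floor in all 4 arrays, and 3 (21.4%, against 46.9% of all genes) above the median rank. Their median of mean ranks was 33.2, against 49.8 for all genes. HAPLN1, a link protein of cartilage matrix, ranked 86.7, 97.3, 97.5 and 97.5, the cartilage regulator SOX9 71.8, 77.9, 77.8 and 78.1 and COL11A1 58.8, 62.9, 63.3 and 62.3. These 3 were the members of 14 above the median rank. COL2A1, the main cartilage collagen, ranked 39.9, 40.4, 40.5 and 40.1, and ACAN (aggrecan) 28.6, 27.01, 24.5 and 27.6, near the floor. COL10A1, of hypertrophic cartilage, was above the floor in no array.

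Muscle and fat genes were mostly low. TNNT1, a troponin of slow muscle, ranked 68.3, 80.1, 78.3 and 81.5 and the actin gene ACTA1 64.6, 61.2, 62.9 and 62.5, the 2 of 12 skeletal muscle genes above the median rank in all 4 arrays. MYOD1, which initiates the muscle programme, was above the floor in no array (22.9 to 27.9). Of 10 adipocyte genes, CFD (adipsin) was above the median rank, at 67.2, 68.00, 64.9 and 66.6, and FABP4, the fatty acid carrier of fat cells, ranked 0.787, 1.13, 2.04 and 2.33.

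Markers of blood, vessels, liver, nerve and osteoclasts were used as a check on other cell types. Of 13 haematopoietic genes, 4 were above the floor and 0 above the median rank in all 4 arrays, and PTPRC (CD45) ranked 2.79, 5.07, 4.75 and 6.74. Of 10 endothelial genes, 2 were above the floor and 0 above the median rank, and PECAM1 (CD31) ranked 15.4, 16.4, 16.04 and 14.1. Of 9 hepatocyte genes 2 were above the floor, and the 1 above the median rank was SERPINA1 (alpha-1 antitrypsin), at 73.1, 82.2, 78.8 and 79.2, while ALB (albumin) ranked 3.74, 2.31, 3.11 and 3.15. Of 11 neural genes 8 (72.7%) were above the floor, near the 68.3% of all genes and over the 59.1% of the osteoblast list. With the floor at the 99th percentile of the olfactory receptor genes, 3 of these 11 and 9 of 22 osteoblast genes were above it. The neurofilament gene NEFL was the 1 above the median rank in all 4 arrays, at 77.7, 77.4, 76.9 and 78.6, with GAP43 lower in replicate 1 at 42.6, 54.4, 55.2 and 55.1. Of 9 osteoclast genes 4 were above the floor, and the 1 above the median rank was NFATC1, a transcription factor with wide use in other cells, at 72.2, 69.5, 67.6 and 67.1, and the protease CTSK ranked 33.8, 32.3, 30.7 and 34.1.

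Of 9 pluripotency and germ-line genes, 3 were above the floor and 2 above the median rank in all 4 arrays. Their median of mean ranks was 17.1, against 49.8 for all genes. PRAME, a tumour antigen of the testis, ranked 94.5, 95.9, 95.4 and 95.5, in the top 10% in all 4 arrays. LIN28B, an RNA-binding protein of early development, ranked 53.7, 55.6, 55.7 and 55.7, while its relative LIN28A was above the floor in no array. The MAGEA, MAGEB and MAGEC families are silent in most adult tissues other than testis. Of 16 measured genes of these families, 8 were above the floor and 2 in the top 10% in all 4 arrays. The share above the floor was below the 68.3% of all genes. The share in the top 10%, which rests on 2 genes, was above the 8.46% of all genes. MAGEA4 read 10.05, 11.33, 11.29 and 11.31 and MAGEB2 10.22, 11.07, 11.06 and 11.09. MAGEC1 and MAGEA10 ranked 62.2, 82.8, 82.1 and 81.7 and 57.6, 80.6, 80.2 and 79.03, lower on replicate 1. The other measured members went down to 4.15 to 7.10 for MAGEB5.

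HOX genes record the position of a cell's origin along the body. In the HOXB cluster 9 of 10 were above the floor and 3 above the median rank in all 4 arrays: HOXB9 at 84.4, 84.1, 83.02 and 83.4, HOXB7 at 66.6, 72.98, 72.6 and 70.8 and HOXB6 at 60.3, 56.5, 60.2 and 63.2. HOXB2, from the other end of the cluster, was above the floor in no array. In the HOXD cluster 7 of 9 were above the floor, and HOXD10 ranked 74.7, 79.96, 81.4 and 82.5 and HOXD9 51.8, 63.6, 63.9 and 62.03, while HOXD3 and HOXD12 were above the floor in no array. In the HOXC cluster 6 of 7 were above it, and HOXC13 ranked 69.6, 71.5, 70.5 and 69.8 and HOXC9 52.7, 56.8, 57.7 and 60.2. With the stricter floor, at the 99th percentile of the olfactory receptor genes, the HOXB count fell from 9 to 5. The HOXD count was then 7 and the HOXC count 5. Above the median rank in all 4 arrays were 2 of 9 HOXD genes and 2 of 7 HOXC genes. The genes with the highest ranks thus carried the numbers 6 to 13, which belong to the central and posterior parts of the clusters. A single HOXA gene, HOXA2, was measured here. It was above the floor in all 4 arrays, but not above the stricter floor in all 4.

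Genes of the cell cycle were high throughout. All 12 G1 cyclins and kinases, all 22 S phase genes and all 27 genes of G2 and mitosis were above the median rank in all 4 arrays, where 46.9% of all genes were. Cyclin D2 (CCND2) read 11.45, 11.94, 11.94 and 11.91 and CDK4, its kinase partner, read 10.59, 11.27, 11.22 and 11.23. Cyclin D1 (CCND1) ranked 92.2, 92.4, 92.2 and 91.9, cyclin E1 (CCNE1) 92.8, 89.5, 89.96 and 88.8 and CDK2 93.4, 93.5, 93.9 and 93.5. CDK6 ranked 88.1, 85.5, 85.2 and 87.4. MNAT1, which assembles the CDK-activating kinase, had the lowest mean rank of the 12, at 70.3, 58.2, 57.5 and 56.8.

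In S phase 14 of 22 genes were in the top 10% in all 4 arrays. TYMS (thymidylate synthase) read 11.80, 12.20, 12.19 and 12.21, and PCNA, the sliding clamp of DNA polymerases, read 10.65, 11.55, 11.54 and 11.59. The subunits MCM2 to MCM7 of the replicative helicase were all in the top 10% in all 4 arrays, with ranks of 92.7 to 93.9 for MCM2 and 95.8 to 96.2 for MCM7. RRM1, the large subunit of ribonucleotide reductase, ranked 97.6, 98.2, 98.2 and 98.3. CDT1, which loads the helicase and is degraded in S phase, had the lowest mean rank, at 74.3, 75.4, 75.8 and 74.8.

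In G2 and mitosis 17 of 27 were in the top 10% in all 4 arrays. Cyclin B1 (CCNB1) read 11.96, 12.13, 12.13 and 12.15, TOP2A (topoisomerase II alpha) 11.45, 11.89, 11.93 and 11.96 and the spindle factor TPX2 11.48, 11.72, 11.73 and 11.75. The proliferation marker MKI67 (Ki-67) ranked 96.5, 95.7, 95.9 and 96.2, and FOXM1, which drives transcription of this group, ranked 97.4, 96.9, 96.8 and 96.97. PLK1 and CDC20 ranked 98.3, 96.1, 95.5 and 95.9 and 98.5, 96.5, 96.4 and 96.5. CDC25C, a phosphatase that activates CDK1, was lowest at 69.1, 70.1, 70.3 and 70.7.

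The retinoblastoma gene RB1 read 9.13, 9.96, 10.06 and 10.12 and ranked 88.4, 87.2, 88.2 and 88.8. Of the 13 RB and E2F genes, 11 were above the median rank in all 4 arrays. TFDP1, the dimer partner of E2F proteins, ranked 96.6, 95.5, 95.2 and 95.4, the repressor E2F7 87.1, 90.6, 91.2 and 91.2 and E2F1 73.7, 70.2, 68.3 and 69.4. E2F5 was the member below the median rank in every array, at 47.3, 36.1, 39.05 and 41.2.

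Of 7 measured CDK inhibitors 6 were above the median rank in all 4 arrays. CDKN3 ranked 90.9, 89.6, 89.4 and 89.6, CDKN1B (p27) 78.7, 76.6, 76.4 and 78.1 and CDKN1A (p21) 69.5, 65.98, 68.3 and 66.1. CDKN2B (p15), the neighbour of CDKN2A on chromosome 9, ranked 50.6, 71.3, 68.6 and 72.7, lower on replicate 1. CDKN2A itself read 5.64, 6.59, 6.60 and 6.78 and ranked 36.5, 32.1, 32.8 and 35.8, the lowest of the 7. It was above the floor in all 4 arrays, but by less than 1 log2 unit in each. Whether its probe set separates p16 from ARF, the other product of the gene, was not tested.

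**Figure D3:**
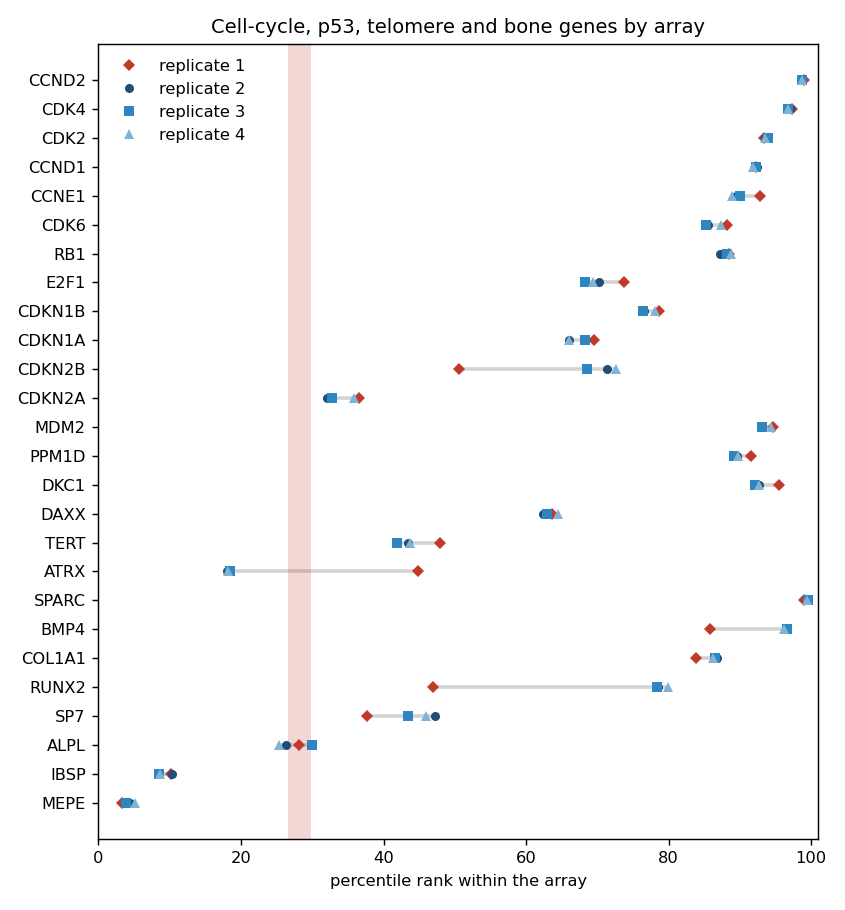
Percentile rank (x axis) of 26 cell-cycle, p53 pathway, telomere and bone genes on each control siRNA array, with a grey bar from the lowest to the highest and the floor shaded. CDKN2B, BMP4, RUNX2 and SP7 lie lower, and ATRX higher, on replicate 1 than on replicates 2 to 4, while the remaining genes keep within about 10 points.

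The tumour suppressor list was high as a group, with 36 of 42 measured members above the median rank and 41 above the floor in all 4 arrays. PRKAR1A, the regulatory subunit of protein kinase A, ranked 97.9, 98.8, 98.7 and 98.7, NF2 (merlin) 98.03, 96.3, 95.5 and 95.9 and EXT1, a heparan sulfate polymerase mutated in hereditary bone exostoses, 95.5, 95.7, 96.1 and 96.03. The chromatin remodelling subunit SMARCB1 ranked 91.9, 94.3, 94.01 and 93.98, and NF1, which switches off RAS, ranked 91.8, 90.8, 91.4 and 92.01. BRCA1 ranked 82.4, 78.97, 78.2 and 79.4 and ATM, the kinase that signals DNA breaks, 75.4, 79.3, 80.2 and 81.3. The helicase genes RECQL4 and WRN, mutated in syndromes with osteosarcoma risk, ranked 66.1, 68.2, 68.4 and 67.4 and 64.9, 59.9, 61.1 and 62.7, and BLM 75.8, 74.99, 73.2 and 75.2.

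The members not above the median rank in all 4 arrays were APC, RASSF1, SUFU, DLG2, CHEK2 and CDKN2A, and they lay at different depths. APC, the scaffold that degrades beta-catenin, ranked 56.2, 49.9, 50.99 and 50.3, around the median. SUFU, an inhibitor of Hedgehog signalling, ranked 45.6, 39.02, 39.7 and 39.1. DLG2, a scaffold gene often deleted in osteosarcoma, read 4.62, 6.29, 6.55 and 6.29 and was above the floor in replicates 2 to 4 but not in replicate 1.

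Genes of the p53 pathway were also high. Of 13 regulators 12, and of 24 target genes 22, were above the median rank in all 4 arrays. MDM2, the ubiquitin ligase that degrades p53 and is itself a p53 target, read 9.95, 10.55, 10.58 and 10.74 and ranked 94.6, 92.98, 93.1 and 94.3. PPM1D, the phosphatase that ends p53 signalling, ranked 91.5, 89.5, 89.2 and 89.7, and MDM4 71.5, 74.9, 77.5 and 77.95. Among targets CCNG1 ranked 95.7, 96.2, 96.5 and 96.4, the growth arrest gene GADD45A 90.9, 91.05, 91.7 and 91.9 and the cell death gene BAX 89.2, 87.8, 87.97 and 87.2. GDF15, a secreted stress cytokine, ranked 41.5, 48.7, 44.3 and 45.9, and SPATA18 was above the floor in no array. These are levels in 1 condition and give no measure of p53 activity.

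Of 30 telomere maintenance genes 27 were above the median rank in all 4 arrays. The telomerase protein TERT was among the exceptions, with log2 values of 6.30, 7.27, 7.15 and 7.27 and ranks of 47.9, 43.5, 41.9 and 43.8. The parts of the telomerase particle that also serve other small RNAs were higher, with DKC1 (dyskerin) at 95.5, 92.7, 92.1 and 92.6 and NOP10 at 88.8, 96.2, 96.6 and 96.1. The telomere-binding protein TERF1 ranked 90.6, 91.3, 91.3 and 91.7 and TERF2 90.1, 81.1, 82.2 and 81.7.

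ATRX, a chromatin remodeller that deposits histone H3.3 with DAXX, differed between arrays more than any other telomere gene. Its kept probe set read 6.12, 5.65, 5.67 and 5.64 and ranked 44.9, 17.99, 18.5 and 18.2, above the floor on replicate 1 and below it on the other 3. Its second probe set read 3.32, 4.38, 4.45 and 4.60, below the floor on every array. DAXX ranked 63.6, 62.4, 62.9 and 64.5, and H3-3B, which encodes H3.3, ranked 97.5, 97.99, 98.1 and 97.95. PML, which forms the bodies in which telomeres recombine in such lines, ranked 46.3, 49.1, 47.97 and 46.98.

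Of 15 genes for sensing DNA and RNA, 9 (60.0%, against 46.9% of all genes) were above the median rank in all 4 arrays. CGAS, the sensor of cytosolic DNA, ranked 64.4, 60.9, 61.6 and 61.5, and STING1, which relays its signal, ranked 42.9, 55.05, 56.7 and 54.6, below the median on replicate 1. IFI16 ranked 70.8, 82.7, 83.5 and 82.8 and TLR4, the receptor for bacterial lipopolysaccharide, 81.8, 90.4, 90.5 and 89.5. AIM2, which senses DNA in inflammasomes, read 3.20, 4.12, 4.17 and 3.87 and was above the floor in no array.

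Receptor tyrosine kinases spanned the whole range, with 15 of 30 above the median rank in all 4 arrays. AXL, the receptor for GAS6, read 10.93, 11.00, 11.05 and 11.00 and was the 1 member in the top 10% in all 4 arrays. The insulin-like growth factor receptor IGF1R ranked 86.3, 91.7, 91.01 and 91.4, the hepatocyte growth factor receptor MET 91.4, 87.2, 86.1 and 87.3 and the ephrin receptor EPHA2 90.3, 87.6, 87.7 and 87.5. EGFR ranked 49.5, 50.4, 49.5 and 48.7 and PDGFRB 59.6, 62.6, 60.6 and 61.7. PDGFRA was lower, at 25.5, 33.5, 33.4 and 31.1, and KIT, KDR, FLT1 and FLT3 were above the floor in no array. Among ligands GAS6 ranked 72.9, 68.5, 71.4 and 73.5, while IGF1 and HGF were above the floor in no array, at 7.40 to 9.09 and 5.44 to 7.23.

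Secreted signals and matrix showed a similar spread. TGFB2, a transforming growth factor, read 11.32, 12.11, 12.12 and 12.15, and the matricellular genes CCN1 and CCN2 ranked 97.3, 98.3, 98.3 and 98.4 and 96.03, 97.2, 97.02 and 97.4. The Wnt inhibitor DKK3 ranked 92.02, 93.7, 93.6 and 92.9, while DKK1 was above the floor in no array. Of 20 collagen genes 11 were above the median rank, with COL12A1 at 94.1, 92.6, 93.02 and 93.1 and the basement membrane chains COL4A1 and COL4A2 at 76.6, 71.05, 70.5 and 69.2 and 82.9, 74.8, 74.7 and 72.8. COL3A1 was lower on replicate 1, at 69.6, 88.3, 88.5 and 88.03. Of 31 growth factor and secreted signal genes, 22 (71.0%) were above the floor and 13 (41.9%) above the median rank in all 4 arrays. These shares were near those of all genes, 68.3% and 46.9%.

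The list of quiescence and senescence genes was mostly high: of 12, 11 were above the floor, 9 above the median rank and 2 in the top 10% in all 4 arrays. The 2 were GADD45A, given above, and LMNB1, a nuclear lamin that falls in senescent cells. KLF2, a transcription factor of resting cells, ranked 76.7, 71.7, 71.1 and 71.2, and GLB1, the lysosomal beta-galactosidase used to stain senescent cells, 75.4, 78.5, 77.96 and 76.2. IL6 and IGFBP3, secreted by senescent cells, ranked 15.7, 17.7, 19.5 and 19.1 and 38.8, 28.9, 31.02 and 32.7, and IL6 was the member above the floor in no array.

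Drug handling genes, surface antigens and nuclear receptors were described from 3 lists. Of 20 chemotherapy genes 15 were above the median rank. GSTP1, which conjugates glutathione to drugs, read 11.06, 12.12, 12.14 and 12.16, TOP1 ranked 94.1, 94.3, 94.2 and 94.2, and the methotrexate carrier SLC19A1 69.9, 63.9, 61.1 and 62.96. The drug exporter ABCB1 (P-glycoprotein) ranked 44.2, 42.4, 44.6 and 45.1, and ABCG2 was above the floor in no array. Of 17 surface antigens 10 (58.8%, against 46.9%) were above the median rank. CD276 (B7-H3) ranked 75.9, 81.5, 81.8 and 81.8, ERBB2 69.2, 71.6, 71.9 and 70.7 and the ganglioside enzyme B4GALNT1 62.1, 66.5, 67.7 and 65.98. CD274 (PD-L1) and FAP were above the floor in no array. Of 21 nuclear receptors 8 (38.1%, against 46.9% of all genes) were above the median rank. The glucocorticoid receptor NR3C1 ranked 82.2, 77.1, 76.6 and 77.8 and the vitamin D receptor VDR 48.7, 35.3, 40.2 and 34.7, while ESR1, ESR2 and PGR were above the floor in no array.

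Agreement between arrays varied with the level of the gene and with the array. The median SD over replicates 2 to 4 was 0.062 log2 units for all genes, 0.028 for genes in the top 10% in all 4 arrays and 0.099 for genes above the floor in none. No gene moved by 20 rank points or more between any pair of replicates 2, 3 and 4. Against the mean of these 3, 118 genes (0.641%) ranked at least 20 points lower on replicate 1 and 34 (0.185%) at least 20 points higher. Of the 1000 highest genes of replicate 1, 844 were among the 1000 highest by the mean of replicates 2 to 4. What sets replicate 1 apart is not stated in the labels, and its part in these ranks was not tested.

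**Figure D4:**
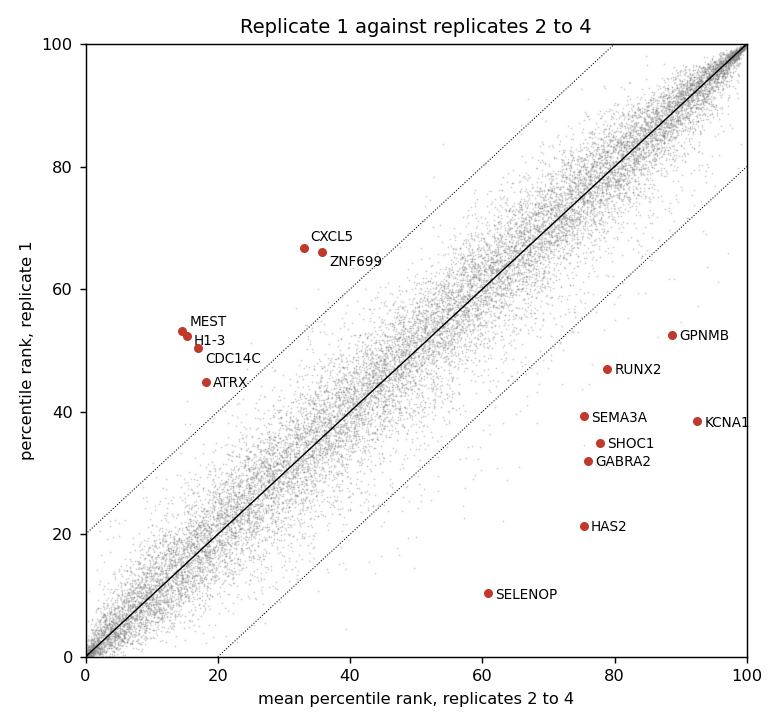
Percentile rank on replicate 1 (y axis) against the mean percentile rank on replicates 2 to 4 (x axis) for 18417 genes, with the line of equality and dotted lines at 20 points. The labelled genes (red) are the 5 with the largest shift each way and RUNX2, ATRX, GPNMB and SEMA3A; KCNA1 lies at 38.4 on replicate 1 and at 91.4 to 93.9 on the others.

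The genes that moved most had varied products. HAS2, which makes the matrix sugar hyaluronan, read 4.71, 9.30, 9.26 and 8.84 and ranked 21.4, 78.1, 77.6 and 70.4. KCNA1, a voltage-gated potassium channel, read 5.75, 10.38, 10.68 and 10.49 and ranked 38.4, 91.4, 93.9 and 92.2. The selenium carrier SELENOP ranked 10.3, 61.2, 59.6 and 61.7, the GABA receptor subunit GABRA2 31.98, 75.2, 76.1 and 76.4 and the meiotic gene SHOC1 34.9, 78.6, 77.3 and 77.5. In the other direction the imprinted gene MEST ranked 53.2, 16.9, 13.7 and 13.3, the linker histone H1-3 52.3, 16.6, 16.6 and 12.6 and the chemokine CXCL5 66.7, 35.01, 31.97 and 31.9. CDC14C ranked 50.4, 17.9, 17.5 and 15.5 and ZNF699 66.1, 34.4, 36.4 and 36.6.

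The lists held 640 measured genes. List members with shifts of at least 20 points were CCL2, CDKN2B, FGF5, GPNMB, MAP2, NR3C2, NR4A1, RUNX2, SEMA3A, ST8SIA1 and TNFRSF11B, all lower on replicate 1, and ACTC1 and ATRX, higher. Over all 18417 genes, 118 (0.641%) were lower and 34 (0.185%) higher by that rule. GPNMB, a surface glycoprotein of osteoblasts and an antibody target, ranked 52.6, 89.4, 89.8 and 86.9. ST8SIA1, the synthase of the ganglioside GD3, ranked 19.5, 50.5, 47.99 and 51.6, and the growth factor FGF5 30.5, 61.4, 59.1 and 58.7. For each of these list members the level on replicates 2 to 4 agreed within 6 points, so a statement on its baseline differs between replicate 1 and the rest. Of 31 clustered protocadherin genes, a family picked after values had been seen, 5 (16.1%, against 0.641% of all genes) were also lower by at least 20 points on replicate 1.

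The promoters of high and low genes differed in sequence. CG dinucleotides were counted in the 250 bases before the RefSeq 5′ end of each gene (GRCh38.p14), which was possible for 12395 genes. The promoters below were chosen after values had been seen, to span the range: 3 of genes with high ranks, CDKN2A, the bone gene IBSP, and the liver gene CYP3A4, a drug-metabolising oxidase. IBSP and CYP3A4 were above the floor in no array. They run 5′ to 3′ on the gene's strand, with each CG in capitals.
PCNA: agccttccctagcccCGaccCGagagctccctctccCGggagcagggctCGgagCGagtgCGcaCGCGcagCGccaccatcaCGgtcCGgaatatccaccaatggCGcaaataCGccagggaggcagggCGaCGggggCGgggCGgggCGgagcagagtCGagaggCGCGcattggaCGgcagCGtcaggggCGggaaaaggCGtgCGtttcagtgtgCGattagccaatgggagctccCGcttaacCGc
CCNB1: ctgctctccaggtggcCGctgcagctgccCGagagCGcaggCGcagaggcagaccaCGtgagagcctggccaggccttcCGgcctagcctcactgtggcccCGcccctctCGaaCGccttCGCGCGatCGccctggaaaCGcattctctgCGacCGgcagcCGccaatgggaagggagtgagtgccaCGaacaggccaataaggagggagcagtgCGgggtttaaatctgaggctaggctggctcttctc
SPARC: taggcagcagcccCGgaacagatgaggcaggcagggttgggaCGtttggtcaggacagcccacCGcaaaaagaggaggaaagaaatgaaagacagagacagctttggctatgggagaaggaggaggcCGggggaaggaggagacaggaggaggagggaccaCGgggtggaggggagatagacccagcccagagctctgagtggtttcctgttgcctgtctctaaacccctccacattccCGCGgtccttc
CDKN2A: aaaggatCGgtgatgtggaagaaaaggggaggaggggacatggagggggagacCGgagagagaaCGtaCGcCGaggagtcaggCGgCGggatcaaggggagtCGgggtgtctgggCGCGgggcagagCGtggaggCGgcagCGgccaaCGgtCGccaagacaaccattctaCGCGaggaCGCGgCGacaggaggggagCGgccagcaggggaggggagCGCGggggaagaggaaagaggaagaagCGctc
IBSP: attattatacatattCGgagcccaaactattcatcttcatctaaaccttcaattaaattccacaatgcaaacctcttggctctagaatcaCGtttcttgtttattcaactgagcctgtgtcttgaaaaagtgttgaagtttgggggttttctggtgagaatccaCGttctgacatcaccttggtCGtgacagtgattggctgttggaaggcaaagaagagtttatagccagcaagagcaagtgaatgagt
CYP3A4: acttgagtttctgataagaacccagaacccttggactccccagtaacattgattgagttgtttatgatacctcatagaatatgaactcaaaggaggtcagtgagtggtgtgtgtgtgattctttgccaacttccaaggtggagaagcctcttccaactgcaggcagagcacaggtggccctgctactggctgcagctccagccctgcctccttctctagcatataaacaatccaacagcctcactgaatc
The windows lie at chr20:5126623-5126872 (PCNA, minus strand), chr5:69166900-69167149 (CCNB1, plus strand), chr5:151686916-151687165 (SPARC, minus strand), chr9:21995325-21995574 (CDKN2A, minus strand), chr4:87799304-87799553 (IBSP, plus strand) and chr7:99784185-99784434 (CYP3A4, minus strand), each just upstream of the first exon.

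The PCNA window held 29 CG, that of CCNB1 19 and that of SPARC 7. The CDKN2A window, at the start of its ARF transcript, held 24, so a window rich in CG went with a low rank there, and SPARC gives the opposite case. The IBSP window held 4 and the CYP3A4 window 0. Both of these held TATAAA or its reverse complement TTTATA in their last 50 bases, and the other 4 did not. Across genes the median number of CG rose from 2 among genes of mean rank 0 to 10 to 23 among those of 60 to 70 and was 21 at 90 to 100. Of the 12395 windows, 59.5% held 15 or more CG, against 42.9% of all 35116 windows of this length in the RefSeq table.

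TATAAA, searched on both strands in the last 50 bases, was in 11.5% of the windows at mean ranks 0 to 10, in 1.25% at ranks 60 to 70 and in 3.32% at 90 to 100, against 4.42% of all 12395. The share in all 35116 windows of the table was 3.47%. Over the 12395 genes, which are not independent, the number of CG and the mean rank correlated at r = 0.452 and Spearman's rho 0.454. Genes in the top 10% in all 4 arrays had a median of 21 CG and those above the floor in no array 4. A match is a description of the letters and not a site in use. RNA of genes rich in G and C also hybridises differently, and the part of this in the ranks was not tested.

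**Figure D5:**
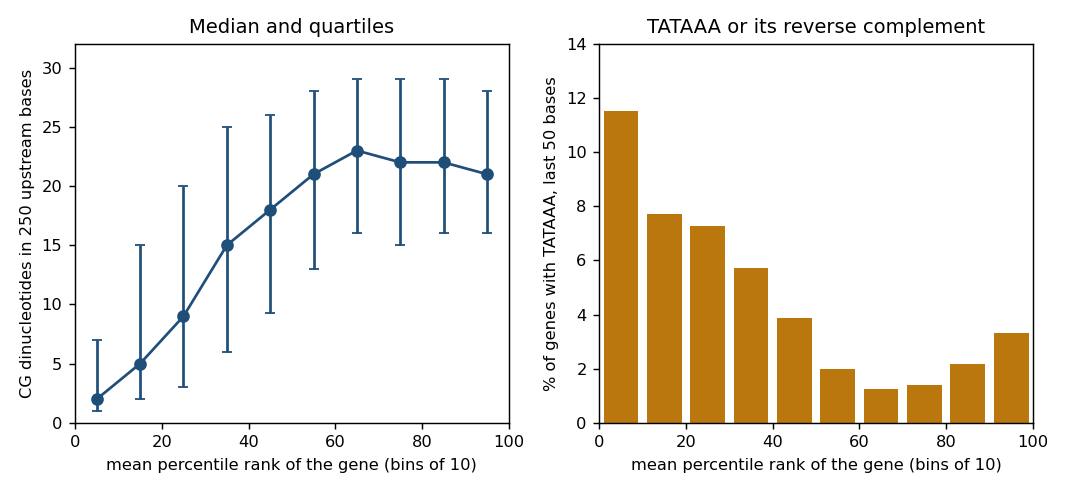
Left, median number of CG dinucleotides (quartiles as bars) in the 250 bases before the gene's start, by mean percentile rank in bins of 10. Right, percent of genes in each bin with TATAAA or its reverse complement in the last 50 bases: CG counts are lowest and TATAAA most frequent (11.5%) in the lowest bin.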

How the data were processed

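The deposited table holds log2 expression values of 33297 probe sets on 8 arrays, of which the 4 control siRNA columns were used and the other 4 were not used here. The submitters' processing notes name the hg19 build, limma, RMA and Affymetrix Expression Console 1.1 without their roles or order. Scanner files were not used here, so signal over background could not be checked probe by probe. Symbols came from the platform annotation: 19460 probe sets had 1 symbol, 1754 several and 12083 none, and 19429 matched RefSeq (GRCh38.p14) by Entrez identifier, which changed 0 symbols. The probe set with the highest mean over the 4 arrays stood for its gene. Ranks, floors and counts were computed with Python 3.11.15, pandas 2.3.3 and numpy 2.4.6, and plots drawn with matplotlib 3.10.9; the ranking was tested on simulated data. No groups were compared, so there is no test and no p-value. The number of arrays limits the precision.

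Genes named were the 20 highest, 5 middle and 10 lowest, the 5 with the largest shift of replicate 1 each way, and members of 38 lists; families and promoters were added later. The members and lists were chosen with earlier results of these data known.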

Additional observations from a re-analysis of the deposited data

Results flagged for a closer look

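In a set of 4 arrays an array was singled out when its gap to the nearest of the others as a share of the whole range exceeded Dixon's 95% critical value. Chance flags about 1 in 20 such sets. Of all 18417 genes, 3608 (19.6%) were singled out in this way by their percentile rank, and in 3353 of these the array was replicate 1. The results named here were replicate 1 in each case.

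Among whole-array values, replicate 1 had 70.2% of genes above the floor, a floor of 5.24, a median of 5.80 over all probe sets and a median of 6.43 over genes. Of the 38 lists, 8 had a median rank on replicate 1 apart from the other 3 arrays: epithelial genes (41.1), neural genes (36.9), the HOXB cluster (41.2), DNA and RNA sensing (54.4), glycolysis (92.05), cytoskeleton (90.8), growth factors and secreted signals (47.2) and cytosolic ribosomal proteins (99.13).

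Of the 45 genes named by their place or shift, 21 were singled out. This count was partly set by the choice of genes, since 10 were named for a large shift of replicate 1; without them it was 11 of 35. The shifts of those at either end of the range were small in rank points. At the high end these were ACTB (99.94), HSP90AB1 (99.95), RPL5 (99.97), RPLP1 (99.76) and SNORD33 (99.92). At the low end they were the microRNA genes MIR190A (0.185) and MIR376C (0.114) and the small nucleolar RNA genes SNORD115-3 (0.565), SNORD115-4 (0.0109), SNORD115-8 (0.282) and SNORD115-14 (0.494). The genes chosen for a large shift had replicate 1 ranks of 38.4 for KCNA1, 21.4 for HAS2, 10.3 for SELENOP, 31.98 for GABRA2, 34.9 for SHOC1, 53.2 for MEST, 52.3 for H1-3, 66.7 for CXCL5, 50.4 for CDC14C and 66.1 for ZNF699.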

How the results depend on the processing

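No paired analysis was possible because a single group was described and no result came from a test. The number of genes above the floor in all 4 arrays was 12584. It ranged from 10755 to 13809 with the floor at the 99th or 90th percentile of the olfactory receptor genes, and from 12612 to 13229 when each array was left out in turn. A count over fewer arrays can fall only through a change in the probe set kept, so the second range does not test for a decrease. With the floor at the median of all genes, chosen after seeing the data, 8632 genes were above it and 8624, in place of 4488, were above it in no array. The dimmest probe set of each gene and genes with a single probe set moved the counts of these classes and of top 10% genes by less than 1.5 times. Quantile normalization of the 4 arrays together gave 12584 genes above the floor again. It keeps the order within each array, on which these counts rest. It could change them only through the probe set kept, so it is no check on them. List by list, the number of members above the floor moved by more in 11 of 38 lists with the stricter floor, in 1 with the laxer one and in 18 with the floor at the median. With genes of a single probe set, which are fewer, it moved in 2: ribosomal proteins from 57 to 36 and hepatocyte genes from 2 to 1. Ranking among all 33297 probe sets moved 35 of the 45 genes named by their place or shift beyond their SD over arrays, by -0.49 to 10.14 points in all 45. Depth is not known for arrays, and values at or under the floor have no order. Replicate 1 sets most of the disagreement between arrays, and genes that shift with it have no single baseline rank here.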

Other observations

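Gene families with tissue-restricted use differed in level. Of 24 bitter taste receptor genes 0, and of 24 beta-defensin genes 2, were above the floor in all 4 arrays, against 10 of the 341 olfactory receptor genes that set it. Keratin-associated protein genes, which build hair, were higher than these families but under the shares of all genes. In all 4 arrays 30 of 68 (44.1%, against 68.3%) were above the floor and 11 (16.2%, against 46.9%) above the median rank. Of 632 long non-coding RNA genes 211 (33.4%) were above the floor and 4 (0.633%) in the top 10%, and their median rank was 24.1 to 24.5 in each array. Small nucleolar RNA genes had 99 of 175 (56.6%) above the floor and 14 (8.0%) in the top 10%, against 68.3% and 8.46% of all genes. These families were picked after values had been seen, except for the olfactory receptors.

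Cytoskeleton genes had 27 of 32 members above the median rank and 16 in the top 10% in all 4 arrays. Cofilin (CFL1), which severs actin filaments, ranked 99.32 to 99.42, and non-muscle myosin MYH9 97.5 to 98.5. The alpha-tubulin gene TUBA1A ranked 86.4 on replicate 1 and 97.5 to 97.8 on the others. Of the nuclear lamins, LMNB1 ranked 94.8 to 96.5 and LMNA 79.6 to 83.6. The cardiac actin gene ACTC1 ranked 56.9 on replicate 1 and 29.6 to 34.9 on replicates 2 to 4. Whether near-identical actin and tubulin genes share signal was not tested.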
